A study of Mus musculus with 2 samples.

Results

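The 2-oxoglutarate dependent dioxygenases are enzymes that use iron, oxygen and 2-oxoglutarate to hydroxylate or demethylate DNA, RNA, histones and other proteins. Of 34 listed genes of this class outside collagen hydroxylation, 33 were found by symbol among 24532 genes of the count table, and Tmlhe, which encodes an enzyme of carnitine synthesis, was not analysed here. The listed genes fall into the TET oxidases of DNA methylcytosine, the JmjC histone demethylases, Jmjd6, which is counted apart from them, the AlkB family, which acts mainly on nucleic acids, the hydroxylases of the hypoxia-inducible factor (HIF), and Asph and Tmlhe. All 33 genes had counts in both libraries.

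These enzymes turn 2-oxoglutarate into succinate as they act, and succinate, fumarate and 2-hydroxyglutarate can inhibit them. Bcat1 encodes the cytosolic aminotransferase that takes the amino group off branched-chain amino acids and passes it to 2-oxoglutarate, which becomes glutamate. The HIF prolyl hydroxylases mark the HIF alpha subunits for destruction when oxygen is present, and the histone and DNA demethylases remove methyl marks that fibroblasts use to keep genes on or off.

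Messenger RNA was sequenced from mouse C57BL/6 cardiac myofibroblasts, the matrix-secreting form of heart fibroblasts, which were isolated 3 days after myocardial infarction. One sample of cells received 12.5 nM of an siRNA against Bcat1 (siBcat1) and the other 12.5 nM of a control siRNA (siControl), and both were kept for 72 hours. A single siRNA was used per group, and each group has 1 library, so there is no spread between replicates, no test and no p-value. The comparison addresses what lowering Bcat1 does to these cells, here for the enzymes that use 2-oxoglutarate as cosubstrate.

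The siBcat1 library held 104581819 counts and the siControl library 127309329. Bcat1 itself, the target of the siRNA, had 99 counts in siBcat1 and 8891 in siControl, a log2 fold of -6.11 [-6.41 to -5.83]. All folds are siBcat1 over siControl, in counts scaled by TMM (trimmed mean of M values), and the brackets are exact 95% intervals that cover counting error only. PCR copies are not independent molecules, so these intervals are too narrow to that extent. Fibroblast and myofibroblast markers, all 12 of which were found in the table, summed to 20099 CPM (scaled counts relative to library size) in siBcat1 and 43781 CPM in siControl. Most of that gap lay in Fn1, with 2955 CPM in siBcat1 and 11958 CPM in siControl, and in Col1a1, Col1a2 and Col3a1. The median log2 fold of the 12 was -0.39 (length-adjusted -0.46), with 10 below 0 and 2 above. Fn1 had -2.02, Col1a1 -1.35, Col1a2 -1.28 and Postn -1.19. Length-adjusted, Fn1 and Postn stayed past 2-fold, at -1.05 and -1.03. Acta2 had -0.11, and Tagln and Thy1 lay above 0, at 0.48 and 0.63. Macrophage markers, of which 11 were found, summed to 28.9 and 10.5 CPM in siBcat1 and siControl, with Ptprc, Adgre1, C1qa and C1qc at 0 in both and Lyz2 alone at 21.3 CPM in siBcat1 and 5.46 CPM in siControl. The 9 cardiomyocyte markers summed to 10.5 CPM in siBcat1 and 46.4 CPM in siControl, of which Tnnt2 alone made up 10.3 and 46.3 CPM, with Myh6, Myl7, Ryr2 and Nppa at 0 in both. The 8 endothelial markers summed to 60.9 and 54.5 CPM, and the 9 smooth muscle and pericyte markers to 153 and 247 CPM, siBcat1 before siControl. Their part in the results was not tested, and in bulk RNA fewer cells of a type cannot be told apart from less RNA per cell.

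With siBcat1, 9 of the 2-oxoglutarate dioxygenase genes were 2-fold or more lower and none was 2-fold or more higher. The lowest were Asph, Hif1an and Kdm6b, followed by Alkbh8, Tet3, Kdm5c, Jmjd1c, Kdm5a and Kdm3b. These counts are over the 29 genes whose mean reached 5 CPM, and the 4 genes below that minimum were Tet1, Tet2, Alkbh4 and Egln3. Of all 9935 genes that passed the minimum, 13.0% were lower by 2-fold or more and 5.58% higher by 2-fold or more. The median log2 fold was -0.52 over the 29 genes and -0.06 over all genes, with 22 of the 29 below 0 and 7 above. Of all 9935 genes, 5287 were below 0 and 4648 above. All 16 TET and histone demethylase genes that passed the minimum were below 0, with a median of -0.89, while the other 13 genes had a median of 0.18, with 7 above 0 and 6 below. After the subtraction of a length trend described next, these medians were -0.05 for the 16 genes, none of them at least 2-fold lower, and -0.02 for the 13, of which 3 were. Of the 16 genes, Tet3, Kdm2a, Kdm4a, Kdm5a, Kdm5b, Kdm5c and Kdm6a then lay above 0 and the others below.

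**Figure D1:**
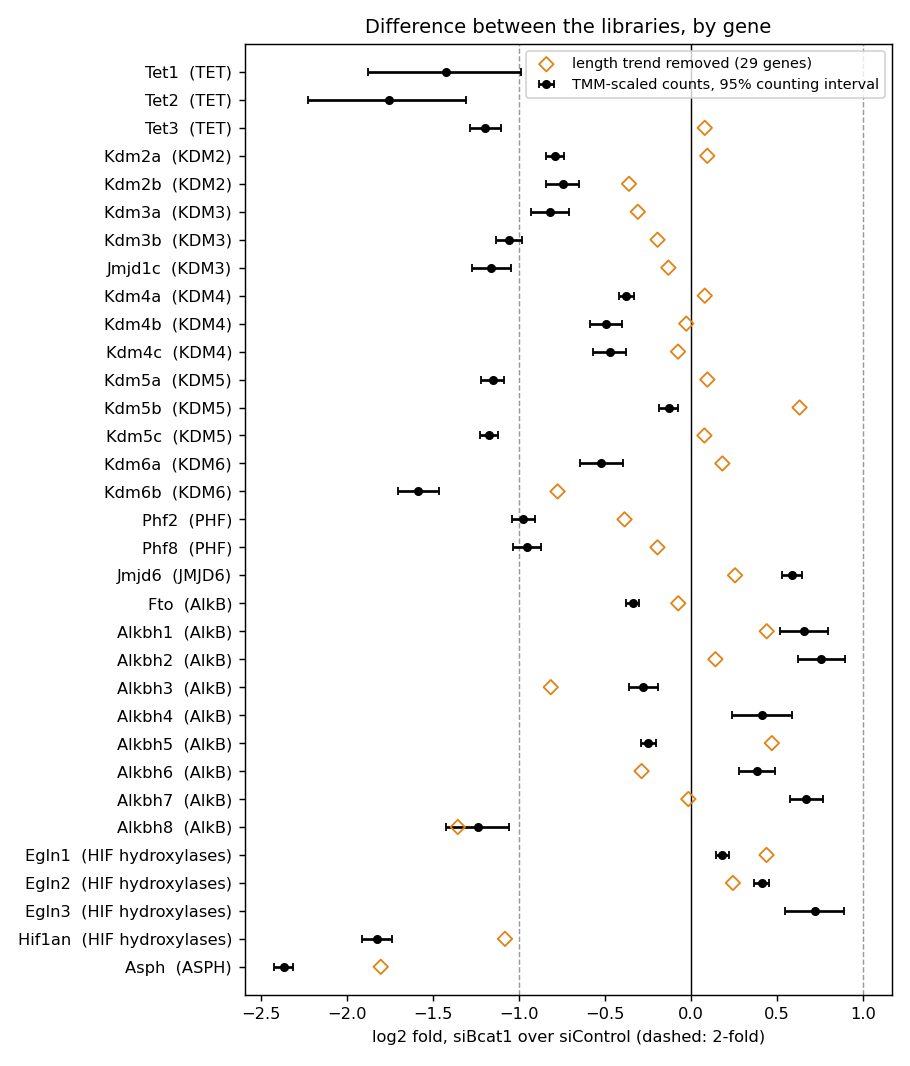
Log2 fold (horizontal axis, siBcat1 over siControl) of each of the 33 genes, grouped by enzyme class, as black points with 95% counting intervals, and, as open diamonds, after subtraction of the length trend for the 29 genes whose mean reached 5 CPM. The demethylase genes at the top lie left of 0, and only Asph, Hif1an and Alkbh8 have both symbols past the dashed line of a 2-fold lower value.

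Transcript length ordered these folds, as it did those of all genes in the table. Spearman's correlation of log2 fold with length was -0.72 over the 29 genes and -0.66 over 9933 genes of the table. The genes share their 2 libraries and are not replicates, so these values are descriptions. The length is the one that counts divided by TPM imply, where TPM is the authors' abundance per length of transcript. Of 14 dioxygenase genes with transcripts of 5000 bases or more, 8 were at least 2-fold lower and all 14 were below 0, and 40.7% of the 1857 genes of that length were at least 2-fold lower. Of 8 dioxygenase genes with transcripts under 2500 bases, 6 were above 0 and 1 was at least 2-fold lower, where 2.05% of 3993 genes of that length were.

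When a smooth curve of log2 fold on length, fitted over all genes, was subtracted, 3 of the 29 genes stayed at least 2-fold lower and none was at least 2-fold higher. Of all genes above the minimum, 5.36% were then lower by 2-fold or more and 3.87% higher by 2-fold or more. The 3 genes were Asph, Alkbh8 and Hif1an, with values of -1.80, -1.36 and -1.08, and these same 3 were at least 2-fold lower in every scaling and trend setting that was tried. The median of the 29 genes was then -0.03, and 23 of them lay within 0.5 of the curve on the log2 scale. Values called length-adjusted below are these differences from the curve. Where the length trend comes from was not tested. With 1 library a group, a difference between the libraries cannot be told apart from an effect of siBcat1.

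**Figure D2:**
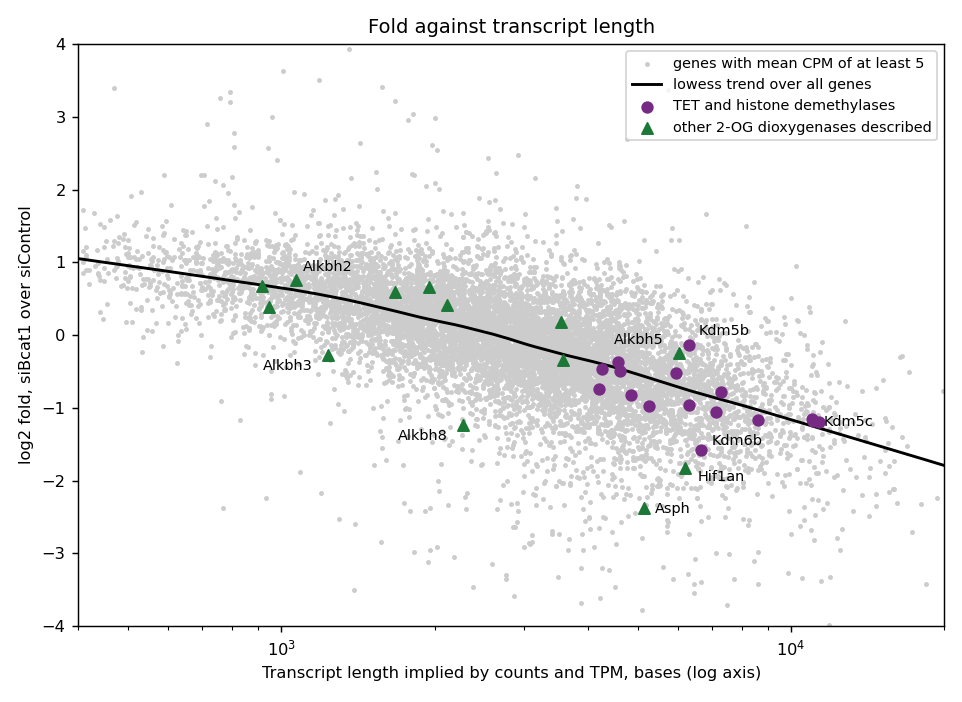
Log2 fold (vertical axis, siBcat1 over siControl) against the transcript length that counts and TPM imply (horizontal log axis, bases) for genes whose mean reached 5 CPM, of which 37 lie outside the axes. The black line is the trend over all genes, the circles are TET and histone demethylases and the triangles the other dioxygenases; Asph, Hif1an and Alkbh8 lie farthest below the line and Kdm5b farthest above it.

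On the TPM scale, on which genes can be compared with each other, the most abundant of the 33 mRNAs in siBcat1 was Egln2 with 53.8 TPM, followed by Jmjd6 with 43.7, Egln1 with 39.7 and Fto with 34.8 TPM. In siControl the order began with Asph at 68.3 TPM, followed by Fto with 62.4, Egln2 with 57.5, Egln1 with 49.7 and Jmjd6 with 41.3 TPM. Asph therefore ranked 13 among the 33 genes in siBcat1 and 1 in siControl. Hif1an ranked 24 in siBcat1 and 15 in siControl. Tet1 and Tet2 were the least abundant in both libraries. TPM values depend on all other genes of a library. On the log2(TPM + 1) scale the median log2 fold was -0.52 over all genes that passed the minimum. It was -0.84 on that scale over the 29 dioxygenase genes that passed, and 28 of the 33 were below 0. The order is that of 1 library each, so the spread over cultures of neighbouring ranks is not known.

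**Figure D3:**
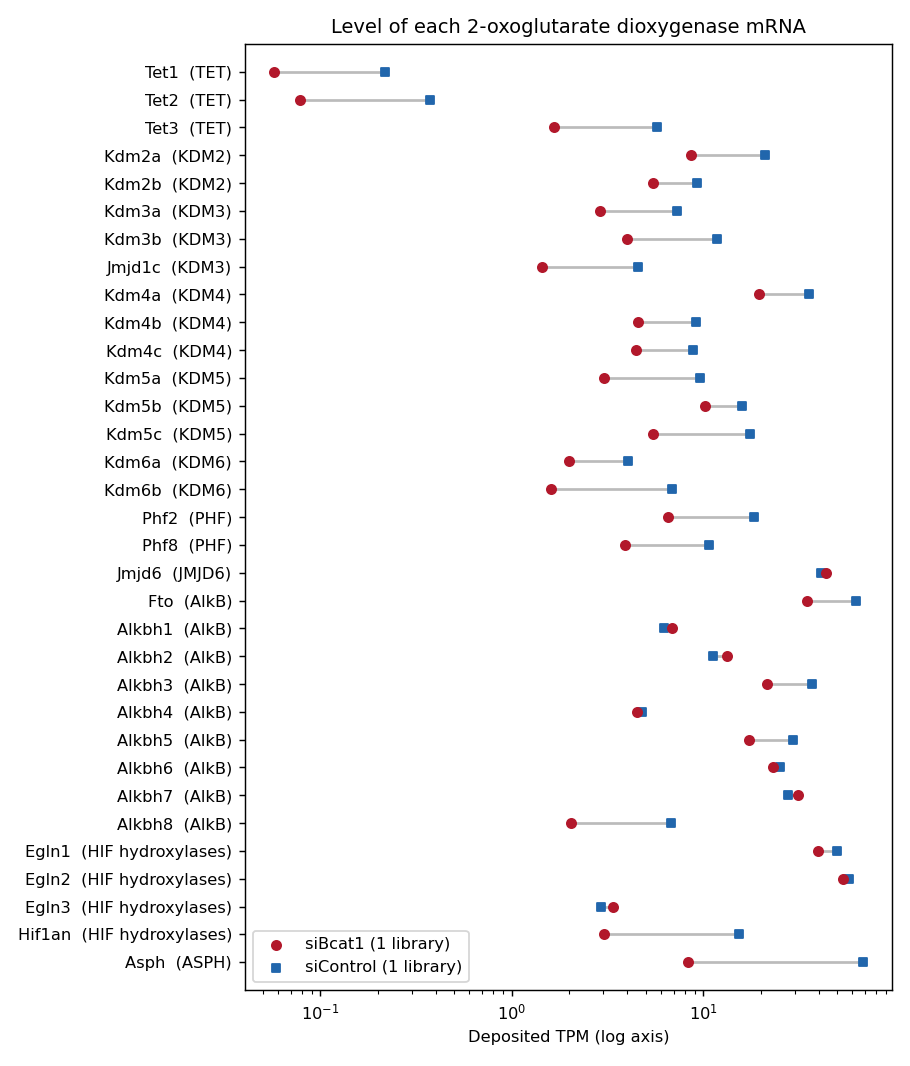
Deposited TPM (horizontal log axis) of the 33 genes in the siBcat1 library (red circles) and the siControl library (blue squares), grouped by enzyme class. The widest gap between the symbols is that of Asph, with 8.29 TPM in siBcat1 and 68.3 TPM in siControl, while Egln2 and Jmjd6 nearly coincide.

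Asph encodes the aspartyl and asparaginyl beta-hydroxylase of the endoplasmic reticulum, which hydroxylates EGF-like domains; shorter products of the same gene, junctin and junctate, take part in calcium handling and lack the catalytic domain. The gene (ID 65973) lies on the minus strand of chromosome 4 at 9448069 to 9669344 in GRCm38, the build of all positions given here. It had 3123 counts in siBcat1 and 20946 in siControl, or 30.8 and 159 CPM. The log2 fold was -2.37 [-2.42 to -2.32], that is 5.17 times lower in siBcat1, and -1.80 length-adjusted. Per 100 reads of Egln1 in the same library there were 32.2 reads of Asph in siBcat1 and 189 in siControl, a ratio that does not depend on the scaling. The count table lists 11 RefSeq transcripts for Asph. Of these, 3 with lengths of 6453 to 6694 bases reach the 3' end of the gene, where the hydroxylase is encoded, and 8 with lengths of 1174 to 2884 bases end before it. The implied mean length was 5445 bases in siBcat1 and 4853 in siControl. Such means require the 3 long transcripts to make up 67.2 to 80.9% of Asph TPM in siBcat1 and 51.7 to 69.7% in siControl, so the long forms were the larger part in both libraries and the ranges overlap. The Asph exons share 19.0% of their bases with Clvs1 on the opposite strand, which had 18 counts in siBcat1 and 34 in siControl.

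The HIF hydroxylases did not move as a group. Egln1, Egln2 and Egln3 encode the prolyl hydroxylases PHD2, PHD1 and PHD3, and Hif1an encodes FIH, the asparaginyl hydroxylase that blocks the binding of the coactivators p300 and CBP to HIF. Hif1an (ID 319594; chromosome 19, 44562850 to 44576274, plus strand) had 1303 counts in siBcat1 and 5998 in siControl, or 12.9 and 45.6 CPM. Its log2 fold was -1.83 [-1.91 to -1.74], 3.55 times lower in siBcat1, and -1.08 length-adjusted.

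Egln1 (ID 112405; chromosome 8, 124908587 to 124949324, minus strand) had 9699 counts in siBcat1 and 11094 in siControl, a log2 fold of 0.18 [0.14 to 0.22] and 0.44 length-adjusted, with the opposite sign of -0.32 on the log2(TPM + 1) scale. Egln2 (ID 112406; chromosome 7, 27158658 to 27166802, minus strand) had 7860 counts in siBcat1 and 7676 in siControl, with a log2 fold of 0.41 [0.36 to 0.46] and 0.24 length-adjusted, and again a negative value, -0.09, with TPM. Neither was past 2-fold in any setting. Egln3 (ID 112407; chromosome 12, 54178981 to 54203860, minus strand), the isoenzyme that hypoxia induces most in many cell types, was low, with 628 counts in siBcat1 and 495 in siControl and a log2 fold of 0.72 [0.55 to 0.89]. Its mean of 4.98 CPM lay just under the minimum of 5 CPM, while the lowest gene above the minimum, Alkbh8, had 5.30 CPM. Egln2 made up 55.5% of the summed TPM of the 3 prolyl hydroxylases in siBcat1 and 52.2% in siControl, Egln1 41.0 and 45.1%, and Egln3 3.49 and 2.65%. Per 100 reads of Egln1 there were 13.4 reads of Hif1an in siBcat1 and 54.1 in siControl. The asparaginyl hydroxylase transcript was thus lower relative to the prolyl hydroxylase transcripts, whatever the scaling.

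HIF binds a short core in the promoters of its targets, spelled ACGTG or GCGTG. The promoter windows of the 4 HIF hydroxylase genes are shown because their transcripts parted; each runs from 250 bases before to 50 bases after a RefSeq start in GRCm38.p6, 5′ to 3′ on the gene's strand, with the core on either strand in capitals. The windows are chr8:124949205-124949504 for Egln1, chr7:27166753-27167052 for Egln2 (the second of its starts, chr7:27165679-27165978, is not printed), chr12:54203825-54204124 for Egln3 and chr19:44562604-44562903 for Hif1an.
Egln1: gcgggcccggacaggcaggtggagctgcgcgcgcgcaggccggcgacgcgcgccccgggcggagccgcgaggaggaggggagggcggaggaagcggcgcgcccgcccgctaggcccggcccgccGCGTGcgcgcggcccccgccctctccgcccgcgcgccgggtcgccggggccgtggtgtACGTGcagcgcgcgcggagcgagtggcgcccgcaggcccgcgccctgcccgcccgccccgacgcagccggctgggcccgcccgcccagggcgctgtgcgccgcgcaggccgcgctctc
Egln2: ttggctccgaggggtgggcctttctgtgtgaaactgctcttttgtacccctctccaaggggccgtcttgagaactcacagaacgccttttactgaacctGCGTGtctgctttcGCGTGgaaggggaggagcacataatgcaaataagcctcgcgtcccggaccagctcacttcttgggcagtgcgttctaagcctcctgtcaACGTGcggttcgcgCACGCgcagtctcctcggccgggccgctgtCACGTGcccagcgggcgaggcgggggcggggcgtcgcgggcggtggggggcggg
Egln3: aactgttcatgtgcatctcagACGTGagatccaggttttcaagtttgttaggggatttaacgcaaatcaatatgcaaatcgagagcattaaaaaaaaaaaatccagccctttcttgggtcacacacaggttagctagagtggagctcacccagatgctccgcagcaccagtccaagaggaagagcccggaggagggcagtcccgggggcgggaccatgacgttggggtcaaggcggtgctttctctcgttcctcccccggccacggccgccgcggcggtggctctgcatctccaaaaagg
Hif1an: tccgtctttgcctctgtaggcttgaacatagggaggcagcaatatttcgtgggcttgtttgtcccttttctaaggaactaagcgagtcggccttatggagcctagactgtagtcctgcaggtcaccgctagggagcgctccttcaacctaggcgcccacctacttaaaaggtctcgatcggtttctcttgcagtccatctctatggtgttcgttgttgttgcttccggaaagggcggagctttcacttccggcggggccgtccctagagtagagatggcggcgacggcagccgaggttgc

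Egln1 held 1 ACGTG and 1 GCGTG, this Egln2 window 3 of each, with the CACGTG palindrome counted on both strands, Egln3 held 1 ACGTG, and Hif1an held neither. Of 27 dioxygenase genes with a window, 17 held at least 1 of the cores. Over their 37 windows the share was 56.8%, and over all 32851 windows it was 43.8%. Both cores contain a CG, and the median was 19 CG in the 37 windows and 7 CG over all windows. Whether the shares differ beyond this difference in CG was not tested. The letters alone do not show binding, and their absence from a window says nothing about HIF.

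The genes around this pathway were counted in lists chosen with earlier results of these data known. Of 11 HIF subunit, VHL complex and coactivator genes that passed the minimum, 4 were lower by 2-fold or more and 1 was higher, with a median of -0.54 (length-adjusted -0.29). Crebbp, which encodes the coactivator CBP, had 152 counts in siBcat1 and 1588 in siControl, a log2 fold of -3.01 (length-adjusted -2.10), and Ep300, which encodes p300, had -1.51 (length-adjusted -0.47). Epas1, the HIF-2 alpha gene, had -1.16 (length-adjusted -0.55), and Arnt2, a partner of the alpha subunits, had -1.19 (length-adjusted -0.46). Hif1a, the HIF-1 alpha gene, had 19686 counts in siBcat1 and 37189 in siControl, a log2 fold of -0.54 (length-adjusted -0.05), and Vhl, which recognises hydroxylated HIF, had 0.04 (length-adjusted 0.07, and -0.45 with TPM). The 1 higher gene, named after its value was seen, was Tceb1, which encodes elongin C of the VHL complex, with 1.08 (length-adjusted 0.45).

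Of 29 listed HIF target genes that passed, which include Egln1 and Kdm3a, none was at least 2-fold higher and 3 were at least 2-fold lower, with a median of 0.17 (length-adjusted 0.11). The 3 lower genes were Hmox1, the heme oxygenase, with -1.55 (length-adjusted -1.92), the glycogen synthase gene Gys1 with -1.13 and the hexokinase gene Hk1 with -1.04 (length-adjusted -0.84 and -0.66). Bhlhe40, a transcriptional repressor gene, had -0.95 (length-adjusted -0.80). Length-adjusted, 2 of the 29 genes were at least 2-fold higher, and 1, Hmox1, was at least 2-fold lower. The 2 higher genes, named after their values were seen, were Mxi1 with 1.08 and Pdk1 with 1.01.

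The TET enzymes oxidise 5-methylcytosine in DNA and so start its removal. Tet3 (ID 194388; chromosome 6, 83362373 to 83459084, minus strand) was the main TET transcript in both libraries, with 92.5% of the summed TET TPM in siBcat1 and 90.6% in siControl. It had 1343 counts in siBcat1 and 3996 in siControl, which is 2.29 times lower in siBcat1, with a log2 interval of -1.29 to -1.11, and 0.08 length-adjusted at an implied length of 11341 bases. Tet1 had 56 counts in siBcat1 and 195 in siControl, with a log2 fold of -1.42 [-1.88 to -0.99], and Tet2 had 50 counts in siBcat1 and 219 in siControl, with a log2 fold of -1.76 [-2.23 to -1.31]. Both lie near 1 CPM, under the minimum, and were not length-adjusted, with implied lengths of 14131 bases for Tet1 and 9261 bases for Tet2.

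Of 7 other genes of DNA methylation that passed the minimum, 5 were at least 2-fold lower and none was at least 2-fold higher, where 13.0% of all genes were lower by that much. With the length trend removed, 1 of the 7 was at least 2-fold lower. The median was -1.22 (length-adjusted -0.55), and 1 gene, Mbd2, named after its value was seen, lay above 0, at 0.27. The de novo methyltransferase gene Dnmt3a had -1.30 (length-adjusted -0.21), Uhrf1, which recruits the maintenance methyltransferase, had -1.22 (length-adjusted -0.95), and the uracil glycosylase gene Smug1 had -1.69 (length-adjusted -1.42).

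Among the demethylases of histone H3 lysine 36, Kdm2a (ID 225876; chromosome 19, 4314419 to 4398285, minus strand) had 4319 counts in siBcat1 and 9684 in siControl, a log2 fold of -0.79 [-0.84 to -0.74] and 0.09 length-adjusted. Kdm2b (ID 30841; chromosome 5, 122870665 to 122989823, minus strand), which also brings a Polycomb complex to CpG islands, had 1336 counts in siBcat1 and 2908 in siControl, with a log2 fold of -0.75 [-0.84 to -0.65] and -0.36 length-adjusted. Neither gene was past 2-fold on counts.

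Kdm2b differed between the libraries in another way, in its implied transcript length, which was 3546 bases in siBcat1 and 4974 bases in siControl. The count table gives it 2 RefSeq transcripts. The long one matches 5180 bases and 23 exons in GENCODE M21 and starts at position 122989099. The short one matches 3532 bases and 12 exons and starts at an internal site at 122900355. The length-adjusted value of Kdm2b was taken at 4200 bases, a mean of the implied lengths that neither transcript has. The short form of KDM2B is known to lack the JmjC demethylase domain and to keep the CpG-binding zinc finger and F-box. In siBcat1 the implied length lay within 2% of the short transcript, and the long one made up a share of TPM of 0.87%, which this tolerance does not separate from 0. In siControl the long transcript made up 87.5%. These shares come from the TPM that the authors' software assigned, and the table gives no reads per transcript.

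Among 3633 genes that passed the minimum and list 2 or more accessions, the implied length differed 1.2-fold or more between the libraries in 63 (1.73%), of which 47 were shorter in siBcat1 and 16 longer. Kdm2b was the one of 10 such dioxygenase genes to differ by that much, and 19 genes of the table, Kdm2b included, shortened to the same degree or more. Of its exon bases 11.6% are shared with Rnf34 on the opposite strand, which had 2645 counts in siBcat1 and 3593 in siControl. Tet3 had implied lengths of 11629 bases in siBcat1 and 11060 bases in siControl, and the other dioxygenase genes apart from Asph differed by less than 2%.

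**Figure D4:**
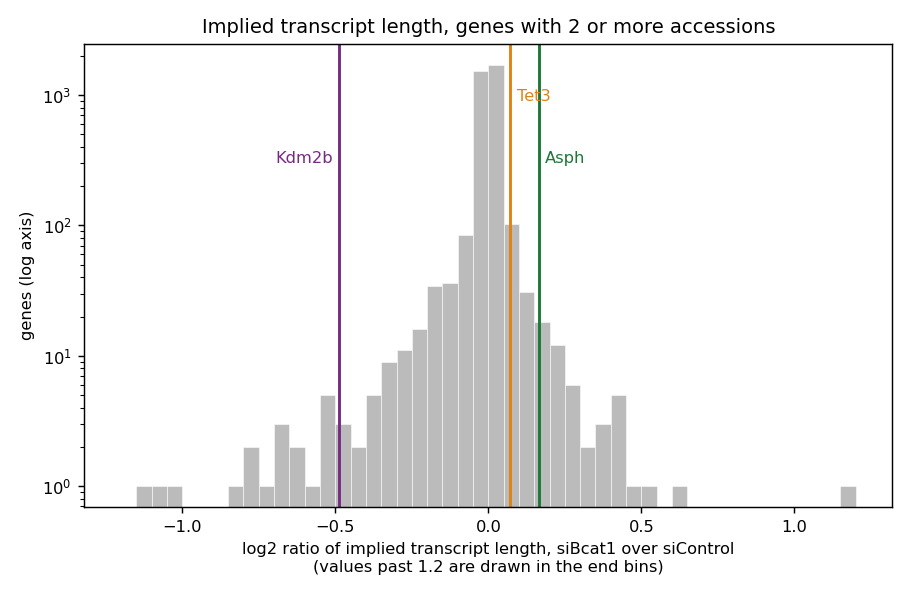
Number of genes (vertical log axis) by the log2 ratio of implied transcript length (horizontal axis, siBcat1 over siControl) for the 3633 genes with 2 or more accessions whose mean reached 5 CPM. Most genes lie at 0, and the line of Kdm2b, with 3546 bases in siBcat1 and 4974 bases in siControl, lies in the sparse left tail, while Asph and Tet3 lie right of 0.

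Of 4 RefSeq windows of Kdm2b, those nearest to the starts of the long and the short transcript are shown because these starts separate the 2 forms. They run 5′ to 3′ on the minus strand in RefSeq, GRCm38.p6, from 250 bases before to 50 after a start, with CG dinucleotides, which the KDM2 zinc finger binds when unmethylated, in capitals. The upstream window is chr5:122989050-122989349, with 28 CG and 63.7% G and C, and the internal window chr5:122900301-122900600, with 49 CG and 81.7% G and C. The median was 7 CG over all windows of the table and 19 over those of the dioxygenase genes.
Kdm2b upstream start: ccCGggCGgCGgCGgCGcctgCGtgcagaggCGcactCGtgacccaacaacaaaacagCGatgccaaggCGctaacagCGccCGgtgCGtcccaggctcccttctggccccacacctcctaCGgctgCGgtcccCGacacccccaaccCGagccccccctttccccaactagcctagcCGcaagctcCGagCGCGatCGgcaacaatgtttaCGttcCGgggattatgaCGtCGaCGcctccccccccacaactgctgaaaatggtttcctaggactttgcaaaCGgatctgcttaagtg
Kdm2b internal start: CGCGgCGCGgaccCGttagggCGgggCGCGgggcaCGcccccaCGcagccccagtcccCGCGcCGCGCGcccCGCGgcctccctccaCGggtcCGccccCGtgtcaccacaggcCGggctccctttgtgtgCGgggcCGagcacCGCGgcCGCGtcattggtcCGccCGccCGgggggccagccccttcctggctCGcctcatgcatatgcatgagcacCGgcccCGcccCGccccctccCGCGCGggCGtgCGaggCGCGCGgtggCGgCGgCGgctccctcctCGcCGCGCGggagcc

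The demethylases of histone H3 lysine 9 in the KDM3 family were lower along the length curve. Jmjd1c (ID 108829; chromosome 10, 67096125 to 67256326, plus strand) had 856 counts in siBcat1 and 2486 in siControl, a log2 fold of -1.16 [-1.28 to -1.05] and -0.13 length-adjusted. Kdm3b (ID 277250) had 1967 counts in siBcat1 and 5324 in siControl, with a log2 fold of -1.06 [-1.14 to -0.99] and -0.19 length-adjusted, and it was short of 2-fold, at -0.93, with upper-quartile scaling. Kdm3a (ID 104263), which hypoxia induces in many cells, had 973 counts in siBcat1 and 2231 in siControl, with a log2 fold of -0.82 [-0.93 to -0.71] and -0.31 length-adjusted.

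The KDM4 genes, whose products act on lysines 9 and 36, lay nearest to 0 among the histone demethylase families by their median. Kdm4a (ID 230674), the most abundant histone demethylase transcript, had 19.6 TPM in siBcat1 and 35.8 TPM in siControl, with 6167 and 10384 counts and a log2 fold of -0.38 [-0.42 to -0.33]. Kdm4b (ID 193796) had 1466 counts in siBcat1 and 2678 in siControl (log2 fold -0.49), and Kdm4c (ID 76804) had 1318 and 2374 (log2 fold -0.47). Length-adjusted, the 3 genes had 0.08, -0.03 and -0.08 in the same order.

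The 3 KDM5 genes, which encode demethylases of histone H3 lysine 4, parted. Kdm5c (ID 20591; chromosome X, 152233020 to 152274535, plus strand) had 4164 counts in siBcat1 and 12200 in siControl, a log2 fold of -1.18 [-1.23 to -1.12], and Kdm5a (ID 214899; chromosome 6, 120364124 to 120444574, plus strand) had 2305 counts in siBcat1 and 6657 in siControl, with a log2 fold of -1.15 [-1.22 to -1.09]. Kdm5b (ID 75605; chromosome 1, 134560171 to 134635285, plus strand) had 4479 counts in siBcat1 and 6360 in siControl, a log2 fold of -0.13 [-0.19 to -0.07]. Per 100 reads of Kdm5a there were 194 reads of Kdm5b in siBcat1 and 95.5 in siControl, and per 100 reads of Kdm5c 108 and 52.1. Kdm5b made up 54.7% of the summed TPM of the 3 genes in siBcat1 and 37.1% in siControl.

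Counts and TPM imply 6313 bases for Kdm5b, 10995 for Kdm5a and 11038 for Kdm5c. The GENCODE transcripts matched by accession have 8714, 10944 and 6449 bases in the same order, so the lengths disagree for Kdm5b and Kdm5c, and which of the 3 is shortest depends on the source. With the implied lengths, Kdm5b had a length-adjusted 0.63, the highest value of the 29 genes, whereas Kdm5a had 0.09 and Kdm5c 0.08. With lengths of GENCODE transcripts in place of the implied ones, Kdm5b had 0.92 and Kdm5c -0.38. Alkbh1 then had the highest value of the 29 genes, 0.99. Kdm5d, the copy of Kdm5c on the Y chromosome, had 1027 counts in siBcat1 and 2533 in siControl, a log2 fold of -0.93 (length-adjusted -0.30), and counting may have split reads between the 2 copies.

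Of the H3 lysine 27 demethylases, Kdm6b (ID 216850; chromosome 11, 69398508 to 69413675, minus strand), which stress and inflammatory signals induce in many cells, had 742 counts in siBcat1 and 2889 in siControl. Its log2 fold was -1.59 [-1.70 to -1.47], the lowest of the demethylases above the minimum, and -0.78 length-adjusted, which is short of 2-fold. Kdm6a (ID 22289; chromosome X, 18162575 to 18279936, plus strand) had 817 counts in siBcat1 and 1521 in siControl, with a log2 fold of -0.52 [-0.65 to -0.40] and 0.18 length-adjusted. Uty, its copy on the Y chromosome, had 881 counts in siBcat1 and 1987 in siControl, with a log2 fold of -0.80 (length-adjusted -0.21), with the same limit on shared reads.

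The PHD finger demethylase genes lay just short of 2-fold lower. Phf2 (ID 18676), which acts on H3 lysine 9, had 2399 counts in siBcat1 and 6120 in siControl, a log2 fold of -0.98 [-1.04 to -0.91]. Phf8 (ID 320595), which acts on lysine 9 of H3 and lysine 20 of H4, had 1694 counts in siBcat1 and 4261 in siControl, with a log2 fold of -0.96 [-1.04 to -0.87]. Length-adjusted they had -0.39 and -0.20, and with library totals in place of TMM both were past 2-fold, at -1.07 and -1.05.

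Genes that set rather than remove histone methylation lay on both sides of 0, with 7 above and 20 below. Of 27 histone lysine methyltransferase and Polycomb genes that passed, 9 were lower by 2-fold or more and 1 was higher, with a median of -0.82 (length-adjusted 0.03), and their lengths had a median of 5084 bases. Length-adjusted, 1 was at least 2-fold lower and 3 were at least 2-fold higher. The higher gene, named after its value was seen, was Suv39h1, an H3 lysine 9 methyltransferase, with 1.04 (length-adjusted 1.19). Dot1l, the H3 lysine 79 methyltransferase, had -2.63 (length-adjusted -1.96), Ash1l -1.89 (length-adjusted -0.62), Kmt2e -1.56 (length-adjusted -0.68) and Kmt2c -1.53 (length-adjusted 0.11). Among the flavin-dependent demethylases and their corepressors, 2 of 4 genes were at least 2-fold lower, Rcor1 with -2.05 (length-adjusted -2.03) and Kdm1b with -1.11 (length-adjusted -0.57). Kdm1a, which encodes LSD1, had 0.03 (length-adjusted 0.16, and -0.46 with TPM), and Rcor3 had -0.20 (length-adjusted 0.11).

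The AlkB family went both ways. Alkbh8 (ID 67667; chromosome 9, 3335140 to 3391154, plus strand), which modifies the wobble uridine of transfer RNAs, had 319 counts in siBcat1 and 978 in siControl, or 3.15 and 7.44 CPM. Its log2 fold was -1.24 [-1.43 to -1.06] and -1.36 length-adjusted. At 2274 bases it was the one dioxygenase gene under 5000 bases that was lower by 2-fold or more. Per 100 reads of Alkbh1 there were 34.3 reads of Alkbh8 in siBcat1 and 128 in siControl. Its mean of 5.30 CPM lay close to the minimum.

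The RNA demethylases of N6-methyladenosine (m6A) were below 0 by small amounts. Fto (ID 26383; chromosome 8, 91313525 to 91668439, plus strand) had 8572 counts in siBcat1 and 14072 in siControl, a log2 fold of -0.34 [-0.38 to -0.30] and -0.07 length-adjusted. Alkbh5 (ID 268420; chromosome 11, 60536381 to 60558512, plus strand) had 7252 counts in siBcat1 and 11183 in siControl, with a log2 fold of -0.25 [-0.29 to -0.21], and it had the opposite sign, 0.47, length-adjusted. Of 16 m6A writer and reader genes that passed, none was at least 2-fold higher and 2 were at least 2-fold lower, with a median of -0.24 (length-adjusted -0.07). Rbm15b, which guides the writer complex, had -1.60 (length-adjusted -1.47), Zc3h13 -1.07 (length-adjusted -0.33) and 1110037F02Rik -0.91 (length-adjusted -0.07). The complex member Wtap had 0.92 (length-adjusted 0.98, and -0.07 with TPM). It had 7288 counts and 31.6 TPM in siBcat1 and 4995 counts and 33.2 TPM in siControl. Counts over TPM thus imply a longer Wtap transcript in siBcat1, while its length-adjusted value rests on 1 length, 2819 bases, for both libraries.

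The repair enzymes Alkbh2 and Alkbh3, which remove alkyl groups from DNA, differed in sign. Alkbh2 (ID 231642) had 988 counts in siBcat1 and 758 in siControl, a log2 fold of 0.76 [0.62 to 0.90], the highest of the 29 genes, and 0.14 length-adjusted. Its exons share 30.7% of their bases with Usp30 on the opposite strand, and whether strand was used in counting is not given in the sources used here. Alkbh3 (ID 69113) had 1832 counts in siBcat1 and 2883 in siControl, with a log2 fold of -0.28 [-0.36 to -0.19] and -0.82 length-adjusted, so it lay well under the curve at 1234 bases.

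Alkbh1 (ID 211064), which acts on transfer RNA and DNA, had 930 counts in siBcat1 and 766 in siControl, a log2 fold of 0.66 [0.52 to 0.80]. Alkbh7 (ID 66400), a mitochondrial member with a role in programmed necrosis, had 1973 counts in siBcat1 and 1609 in siControl, with a log2 fold of 0.67 [0.57 to 0.77]. Alkbh6 (ID 233065) had 1513 counts in siBcat1 and 1504 in siControl, with a log2 fold of 0.38 [0.28 to 0.49], and Alkbh4 (ID 72041), which lay below the minimum at 4.82 CPM, had 558 counts in siBcat1 and 544 in siControl, with a log2 fold of 0.41 [0.24 to 0.59]. Length-adjusted, Alkbh1 had 0.44, Alkbh7 -0.02 and Alkbh6 -0.29, and with log2(TPM + 1) Alkbh6 had -0.12 and Alkbh4 -0.08. Alkbh1 alone of these 4 thus kept its sign in all settings, and none of the 4 was past 2-fold. The implied length of Alkbh1 was 1953 bases and its GENCODE length 3857 bases. Its value with GENCODE lengths was 0.99, so its size depends on the source of the length.

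Jmjd6 (ID 107817; chromosome 11, 116837432 to 116843449, minus strand), a lysyl hydroxylase of splicing factors, had 5054 counts in siBcat1 and 4368 in siControl, a log2 fold of 0.59 [0.53 to 0.64] and 0.26 length-adjusted. Its transcript is short, at 1672 bases, and unlike the 16 TET and histone demethylase genes above the minimum it lay above 0. Its exons share 10.3% of their bases with Mettl23 on the opposite strand, which had 2202 counts in siBcat1 and 1983 in siControl.

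Dioxygenases outside the 34 genes were spread around 0. Of 15 that passed, 1 was higher and 1 lower by 2-fold or more, with a median of 0.01 (length-adjusted 0.20). There were 8 above 0 and 7 below, the latter including Kdm5d and Uty, whose values are given above. The median transcript length was 2154 bases for these 15 genes and 4860 bases for the 29 genes. Ogfod3 had 1.51 (length-adjusted 0.98), Ogfod2 0.94 (length-adjusted 0.56) and Ogfod1, a prolyl hydroxylase of a ribosomal protein, -1.04 (length-adjusted -0.45).

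Enzymes that make or use 2-oxoglutarate, succinate, fumarate or 2-hydroxyglutarate, without Bcat1, numbered 24 above the minimum, of which 2 were higher and 2 lower by 2-fold or more. Their median was 0.21, or -0.06 length-adjusted. Idh1, the cytosolic isocitrate dehydrogenase that makes 2-oxoglutarate, had 40749 counts in siBcat1 and 26338 in siControl, a log2 fold of 1.01 (length-adjusted 0.89), and Ogdhl, related to the 2-oxoglutarate dehydrogenase, had 1.37 (length-adjusted 1.61). Gpt2, an alanine aminotransferase, had -1.37 (length-adjusted -1.10) and Suclg2, a subunit of succinyl-CoA ligase, had -1.07 (length-adjusted -0.84). Bcat2, the mitochondrial counterpart of Bcat1, had 0.17 (length-adjusted -0.12, and -0.33 with TPM).

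**Figure D5:**
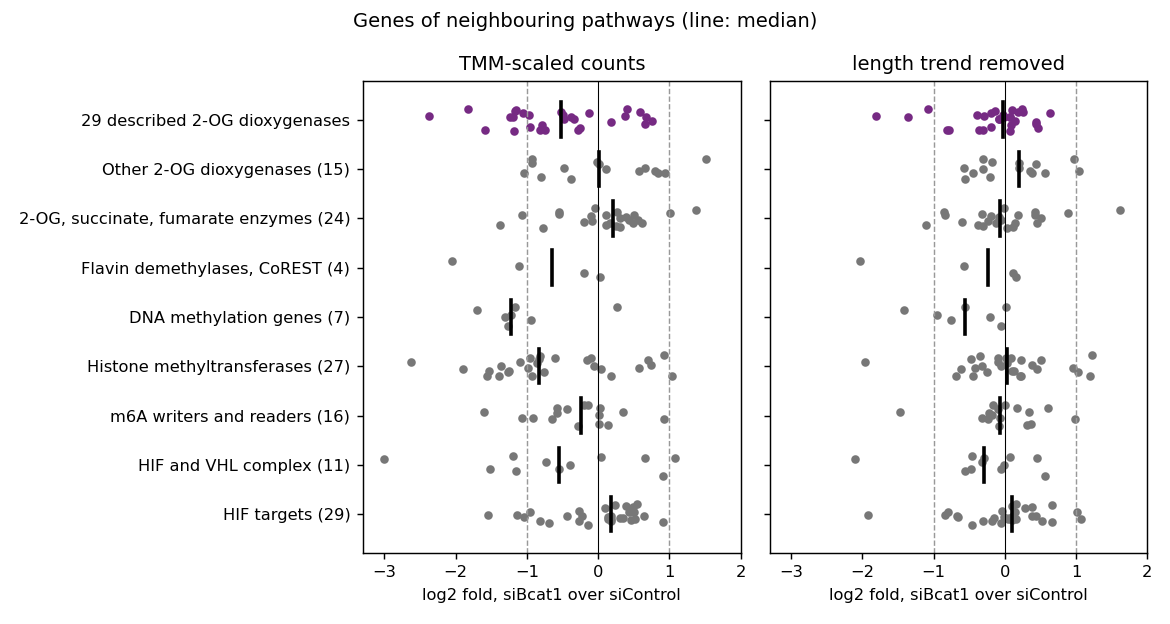
Log2 fold (horizontal axes, siBcat1 over siControl) of the genes of each list whose mean reached 5 CPM, on TMM-scaled counts (left) and with the length trend removed (right), with each list's median as a line and the 2-fold limits dashed. The 29 dioxygenase genes have medians of -0.52 on the left and -0.03 on the right.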

How the data were processed

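Per the labels, column-purified RNA was built into stranded mRNA libraries by a sequencing service. The submitters' processing notes name FastQC, Trimmomatic, HISAT2, StringTie and build mm10; the sources used here give neither versions and settings nor whether strand was used in counting. Per the file headers, the deposited matrix gives 1 whole read count for each gene and library, with no normalization. The TPM values are the authors' own and sum to 998120 in siBcat1 and 998462 in siControl.

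Counts were scaled with TMM factors of 0.969 for siBcat1 and 1.03 for siControl (edgeR 4.0.16, R 4.3.3), estimated on all genes. Intervals are Clopper-Pearson (scipy 1.17.1). With 1 library a group, called means at least 2-fold, among genes whose mean reached 5 CPM; a floor of 3 counts would have stood in for a 0, but no dioxygenase gene named had one. Implied lengths are counts over TPM, scaled to GENCODE M21 lengths of 6264 genes with 1 transcript; the tolerance for a match was 2%, met by 3655 genes in siBcat1 and 3661 in siControl. The length trend is a lowess curve (fraction 0.3, 3 iterations, statsmodels 0.14.6) and accounted for 37.8% of the variance of log2 folds. Gene positions are GENCODE M21, GRCm38, and promoter sequences RefSeq GRCm38.p6. Calculations were tested on simulated data.

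The genes and lists were chosen with earlier results of these data known. All 34 genes are named, and from other lists up to 4 with the largest absolute log2 fold above the minimum, with Bcat2, Hif1a and Vhl. The values of 1 gene that this rule names are not reported here. Protein sequences were not used here. Other settings tried were upper-quartile factors, library totals, size factors of DESeq2 1.42.0, TPM with pseudocounts of 1 and 0.1, minimum CPM of 1, 20 or none (prior count 0.5), 1.5-fold and 3-fold limits, whole intervals past 2-fold, the mean in place of the median, and removal of length and GC trends; a curve on GENCODE lengths was added after the data were seen.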

Additional observations from a re-analysis of the deposited data

How the results depend on the processing

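The count of 9 dioxygenase genes at least 2-fold lower was 3 with the length trend removed, 3 with length and GC trends removed and 3 with the trend on GENCODE lengths, an alternative chosen after seeing the data. It was 14 at a 1.5-fold limit, where 4 were higher, and 3 at a 3-fold limit. The 3 genes past 3-fold were Asph, Hif1an and Kdm6b, with Kdm6b just past it at 3.00 times lower, while Alkbh8 was 2.36 times lower. It was 13 with log2(TPM + 1) and with log2(TPM + 0.1), 11 with library totals, at a minimum of 1 CPM and with no minimum, 9 with DESeq2 size factors, 8 with upper-quartile factors and with whole intervals past 2-fold, and 6 at a minimum of 20 CPM. Alkbh8, with a mean of 5.30 CPM, falls under that last minimum. The number of all genes called at the other fold limits, at the other minimums or with whole intervals is not given here. The dioxygenase counts in those settings therefore have no share of all genes beside them. The median of -0.52 was -0.61 with library totals, -0.39 with upper-quartile factors, -0.84 with log2(TPM + 1), -0.98 with log2(TPM + 0.1), -0.79 at a minimum of 20 CPM, -0.028 with the length trend removed, -0.027 with length and GC trends removed and -0.077 with GENCODE lengths. The Bcat1 log2 fold of -6.11 was -3.999 with log2(TPM + 1), -5.16 with the length trend removed, -5.15 with length and GC trends removed and -5.53 with GENCODE lengths.

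The median of all genes moved by 0.13 with upper-quartile factors and by -0.46 with log2(TPM + 1). Of all genes that passed the minimum, 97 were higher and 2396 lower by 2-fold or more with log2(TPM + 1). These numbers were 554 and 1292 with TMM, 816 and 1023 with upper-quartile factors, and 391 and 1493 with library totals. They were 107 and 2857 with log2(TPM + 0.1) and 556 and 1287 with DESeq2 size factors. With the length trend removed they were 384 and 532, with length and GC trends removed 328 and 515, and with GENCODE lengths 407 and 526. Of the 33 dioxygenase genes, 18 kept their sign in all settings that gave them a value, 14 of them below 0 and 4 above. Among the 18, Tet1, Tet2 and Egln3 lay under the minimum and had no value with a trend removed. Tet3, Kdm5a and Kdm5c, called lower on counts, turned positive with the length trend removed, at 0.080, 0.095 and 0.078 in that order; with length and GC trends removed Tet3 had 0.19 and Kdm5c 0.18, and with GENCODE lengths Tet3 had 0.045 and Kdm5a 0.091. No paired analysis was possible because each group has 1 library, and no replicate could be left out. Counts of 50 to 9699 in siBcat1 and 195 to 20946 in siControl give counting intervals that are wide for Tet1 and Tet2 and narrower for the others; the missing replicates limit all of these values. Why values moved under any of the settings, the length curves included, was not tested.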
